A study of Homo sapiens with 4 samples.

Results

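Of 12825 bins of about 200 kb on the 22 autosomes, 331 lay in the B compartment in 3 of 4 chromosome contact maps and in the A compartment in the fourth, the map of senescent cells in which HMGA1 had not been depleted. The maps were made by Hi-C, in which crosslinked DNA is digested, here by HindIII, and fragments held near each other are ligated and sequenced as pairs. A bin was used if at least 50% of its pairs with the bins of its own chromosome were listed in each map, which kept 12825 of 13547 autosomal bins. The compartment score of a bin is its entry in the first principal component of the correlation matrix of its chromosome. It was scaled to a root mean square of 1 per chromosome and given the sign under which gene-rich bins score higher. Scores above 0 are called A and scores below 0 are called B. The 331 bins were chosen by these scores alone, which were below 0 in growing cells, in growing cells with HMGA1 depleted and in senescent cells with HMGA1 depleted, and above 0 in senescent cells without depletion. They are called OIS-only A bins below, because the scores that chose them do not by themselves say that a bin gained contact with open chromatin.

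All cells were of the established human lung fibroblast line IMR90, carrying an ER:HRAS G12V fusion that 4-hydroxytamoxifen (4OHT) switches on. Growing cells without 4OHT are called Grow, and cells after 6 days of 100 nM 4OHT, in oncogene-induced senescence, are called OIS (RIS in the labels). Grow-shA1 and OIS-shA1 cells also carried a microRNA-style hairpin against HMGA1 in a retroviral vector (shA1), with 2 replicates of each joined into 1 map. The Grow and OIS maps came from an earlier data set and belong to no sample of this series, so every comparison of shA1 with no shA1 also compares 2 data sets. The HMGA1 level itself cannot be read from contact maps. With 1 map per condition no difference below has a replicate check, and because the scores chose the bins, their values are given as a description without a test. Bins are not replicates either, since neighbouring bins share contacts.

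Chromosomes fold so that active, gene-rich stretches (A) contact other active stretches, and inactive, gene-poor stretches (B), many of them at the nuclear lamina, contact each other. HMGA1 is a small architectural protein whose AT-hooks bind the minor groove of runs of A and T. In fibroblasts driven into senescence by RAS it accumulates on chromatin and is needed for senescence-associated heterochromatic foci, dense nuclear bodies in which inactive chromatin of a chromosome gathers.

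Because HMGA1 binds runs of A and T, the middle 120 bases of the OIS-only A regions with the lowest, the median and the highest GC content among the longest runs and the bins of extreme score are shown from GRCh37 (hg19), plus strand. Capitals mark every run of 5 or more A or T bases.
chr1:190098707-190098826, in an intron of BRINP3: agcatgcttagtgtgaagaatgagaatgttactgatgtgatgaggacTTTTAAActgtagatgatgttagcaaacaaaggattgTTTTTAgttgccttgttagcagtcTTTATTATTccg
chr1:195899929-195900048, where no gene is annotated: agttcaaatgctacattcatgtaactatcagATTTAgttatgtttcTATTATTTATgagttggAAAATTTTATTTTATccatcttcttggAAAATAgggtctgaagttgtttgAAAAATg
chr2:29898681-29898800, in an intron of ALK: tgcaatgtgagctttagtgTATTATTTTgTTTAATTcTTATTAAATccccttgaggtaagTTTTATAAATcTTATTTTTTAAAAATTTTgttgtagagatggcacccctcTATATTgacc
The runs took up 22, 42 and 59 of the 120 bases. The window from the region of highest GC content, 43.1% over 5 bins, held more bases in such runs than the window from the bin of lowest GC content, 33.6%. A window of this length therefore did not follow the base composition of its region, and the counts over whole bins are given further on.

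The maps listed between 3768154 and 4358212 pairs of bins on the autosomes, fewest in OIS-shA1 and most in Grow, and the read depth behind a listed value is not known. The OIS-only A bins had a median of 91.7% of their pairs listed in Grow, 86.1% in Grow-shA1, 83.5% in OIS and 81.8% in OIS-shA1. Bins that stayed B in all maps had 88.8%, 84.0%, 79.7% and 77.2%. All 13 of 13 fibroblast marker genes lay in A bins in each of the 4 maps, so the labelled cell type was not contradicted. An A bin alone does not mark a cell type. Of 15 markers of other lineages, 6 lay in A bins in Grow, 6 in Grow-shA1, 11 in OIS and 9 in OIS-shA1. Of 16814 protein-coding genes that start in used bins, 9974 were in bins that were A in all maps. Chromosome 1 stood apart. Its first component in OIS took 14.7% of the variance against 12.5% for the second, and the score there correlated with GC content across bins at r = 0.0998, where the other 21 autosomes began at 0.261. These are correlations across bins of 1 map and carry no p. Results that rest on chromosome 1 are therefore given with and without it.

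The OIS-only A bins crossed 0 by little. Their median score was -0.54 in Grow, -0.78 in Grow-shA1, 0.17 in OIS and -0.21 in OIS-shA1. The quartiles were -0.72 and -0.35 in Grow, -0.97 and -0.57 in Grow-shA1, 0.08 and 0.31 in OIS, and -0.43 and -0.09 in OIS-shA1. In OIS they thus lay between bins that were A in all maps, whose median was 0.88, and bins that stayed B, whose median was -1.22. Over all bins, 9.5% went from below to above 0 between Grow and OIS, 7.96% did so between Grow-shA1 and OIS-shA1, and 3.08% were above 0 in OIS and below 0 in OIS-shA1. By the rule, all 331 bins are among the first and the last of these and none among the second.

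**Figure D1:**
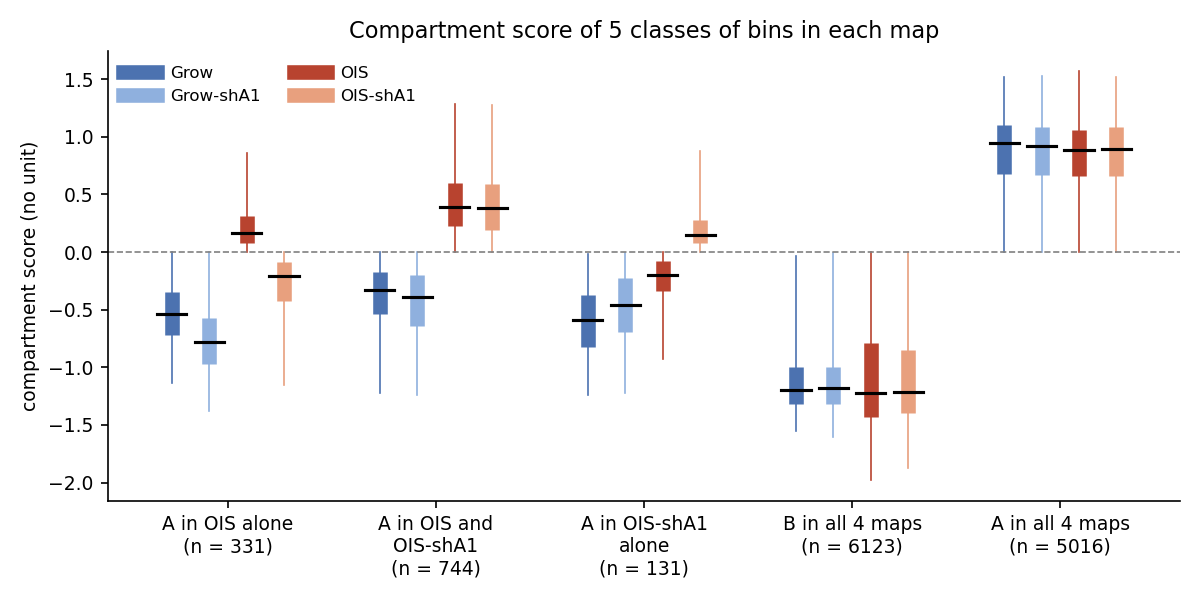
Compartment scores (vertical axis, no unit) of 5 classes of autosomal bins in the 4 maps. Thick bars span the quartiles, thin lines the lowest to the highest bin and black lines mark medians. The 331 OIS-only A bins, at the left, had a median of 0.17 in OIS and of -0.21 in OIS-shA1, both close to the dashed line at 0.

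The bins moved toward A with RAS in the presence of shA1 too, but by the rule stayed below 0. The score rose by a median of 0.73 between Grow and OIS, a direction the rule fixes, and by a median of 0.47 between Grow-shA1 and OIS-shA1, where 323 of 331 bins rose and 8 fell. In the latter comparison 2605 of 6123 bins that stayed B rose, as did 2286 of 5016 bins that were A in all maps. The rule sets OIS above 0 and OIS-shA1 below 0, which favours a smaller rise with shA1. The ratio of the 2 median rises of the OIS-only A bins was 0.649. It was 0.724 without chromosome 1, where the score rose by medians of 0.67 and 0.48, while on chromosome 1 the medians were 1.18 and 0.38. The ratio fell to 0.285 with only bins that had 80% or more of pairs listed, to 0.242 with only pairs listed in all 4 maps and to 0.235 with the component per arm. The starting point also differed. In growing cells the score was lower with shA1 than without in 294 of the 331 bins, by a median of 0.22, while bins that stayed B in all maps had a median difference of 0.01. Of the bins that stayed B 2896 of 6123 were lower, and of the bins that were A in all maps 2719 of 5016. Bins that were A in OIS both with and without shA1 (744 bins) rose by medians of 0.76 and 0.84, and their growing scores differed by a median of -0.06. Their rule asks for A in both senescent maps, so the direction of both rises is fixed. Together with those 744 bins, the OIS-only A bins were 30.8% of the bins that were B in both growing maps and A in OIS. The exact Clopper-Pearson interval of that share was 28.0 to 33.6%, which treats bins as independent and covers counting error only.

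The mirror class, B in Grow, Grow-shA1 and OIS and A in OIS-shA1, held 131 bins. Its median scores were -0.59 in Grow, -0.46 in Grow-shA1, -0.20 in OIS and 0.15 in OIS-shA1. These bins rose by a median of 0.34 without shA1, 113 of 131 upward, and by 0.69 with it. The rule of this class fixes the direction with shA1 and limits the rise without it. Between Grow and OIS, 2687 of 6123 bins that stayed B and 2196 of 5016 bins A in all maps rose. In growing cells 91 of 131 mirror bins scored higher with shA1, the opposite direction to the OIS-only A bins. So did 3227 of 6123 bins that stayed B and 2297 of 5016 bins A in all maps. There were more OIS-only A bins than mirror bins on 16 autosomes and fewer on 5. The excess of 331 over 131 became 279 against 108 without chromosome 1.

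Many of the 331 bins lay near the dividing score. In OIS 105 were within 0.1 of 0, in OIS-shA1 96 were, and 181 were within 0.1 of 0 in at least 1 map. The bin just inside the OIS threshold was chr5:167995345-168199146, at 0.000176, and the bin just outside was chr16:23603294-23800589, at -0.000250. For OIS-shA1 the bin just inside was chr3:148400787-148602073, at -0.000361, and just outside was chr7:14001734-14202891, at 0.000737. For Grow the nearest bins scored -0.000312 inside and 0.00519 outside, and for Grow-shA1 -0.00271 inside and 0.00570 outside. When the score was computed from odd-numbered and from even-numbered partner bins separately, 235 of the 331 bins met the rule in both. The sign in OIS was the same in both computations for 281 bins, the sign in OIS-shA1 for 286 and the sign in Grow for 325.

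The contacts behind the score were read from pairs over 2 Mb apart that were listed in all maps. Values are the authors' distance-corrected contact, a score whose 0 need not be the usual contact of the pairs used here. Each bin's mean was taken first (mean ± SD over 331 bins). What fell with RAS was mainly contact with inactive chromatin. Contact with bins that were B in all maps was 0.260 ± 0.195 in Grow, 0.340 ± 0.223 in Grow-shA1, -0.061 ± 0.201 in OIS and 0.092 ± 0.191 in OIS-shA1. Contact with bins that were A in all maps was -0.179 ± 0.206 in Grow, -0.293 ± 0.223 in Grow-shA1, -0.113 ± 0.222 in OIS and -0.243 ± 0.220 in OIS-shA1. RAS thus lowered contact with B by 0.321 without shA1 and by 0.248 with it, and raised contact with A by 0.066 and 0.050. Without chromosome 1 the contact with B fell by 0.293 and 0.220, and the contact with A rose by 0.082 and 0.060. The mean contact of OIS-only A bins with A bins stayed below 0 in every map, though some single bins described below were above 0.

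Contact with A minus contact with B was lower with shA1 in growing and in senescent cells in most of the bins. It was higher in OIS than in Grow in 321 of 331 bins, against 56.4% of all bins. It was higher in OIS-shA1 than in Grow-shA1 in 301, against 54.4%. It was lower in OIS-shA1 than in OIS in 304, against 40.5%, and lower in Grow-shA1 than in Grow in 289, against 39.1%. The medians over the 331 bins were -0.408 in Grow, -0.591 in Grow-shA1, -0.056 in OIS and -0.281 in OIS-shA1. The same pairs of bins enter the score, so these counts describe the choice of bins and do not support it. Bins that were A in OIS with and without shA1 had medians of 0.136 in OIS and 0.182 in OIS-shA1, and 449 of 743 with a value were higher with shA1.

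**Figure D2:**
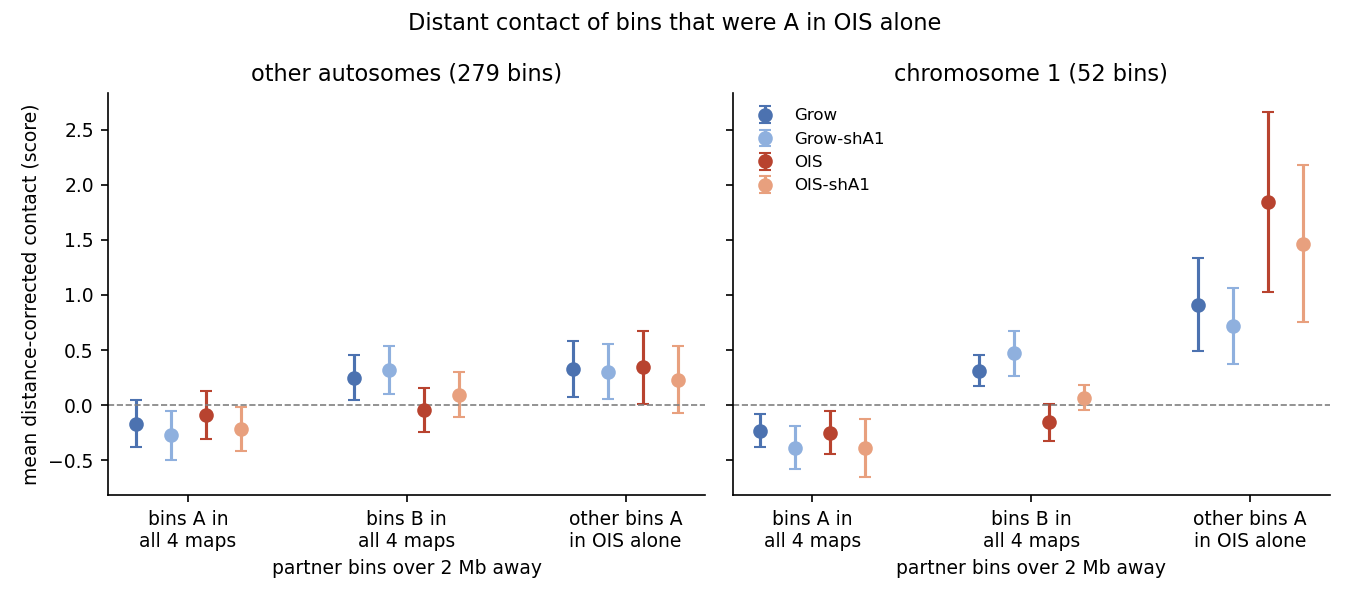
Mean contact of OIS-only A bins with 3 kinds of partner bins over 2 Mb away (vertical axis, distance-corrected contact as a score). Points are means over bins and bars are the SD over bins, in the 4 maps. Outside chromosome 1 contact with B bins fell from 0.250 to -0.043 between Grow and OIS, and on chromosome 1 contact among the bins themselves rose from 0.913 to 1.85.

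The distance over which contact changed differed between partners. With chromosome 1 left out, contact with A bins 1 to 2 Mb away rose by 0.244 between Grow and OIS and by 0.092 between Grow-shA1 and OIS-shA1. At 20 to 50 Mb those rises were 0.082 and 0.079. Contact with B bins fell most at 10 to 20 Mb, by 0.391 without shA1 and by 0.348 with it. Contact of OIS-only A bins with each other at 5 to 10 Mb rose by 0.185 without shA1 and fell by 0.0538 with it. From 0.3 to 5 Mb this contact rose in both cases, as by 0.319 and 0.157 at 2 to 5 Mb. At 10 to 20 Mb it again fell only with shA1, and at 20 to 50 Mb it fell in both, by 0.090 and 0.097. The gap between the conditions with and without shA1 in the change of contact with A was thus found within about 10 Mb and was near 0 beyond 20 Mb.

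**Figure D3:**
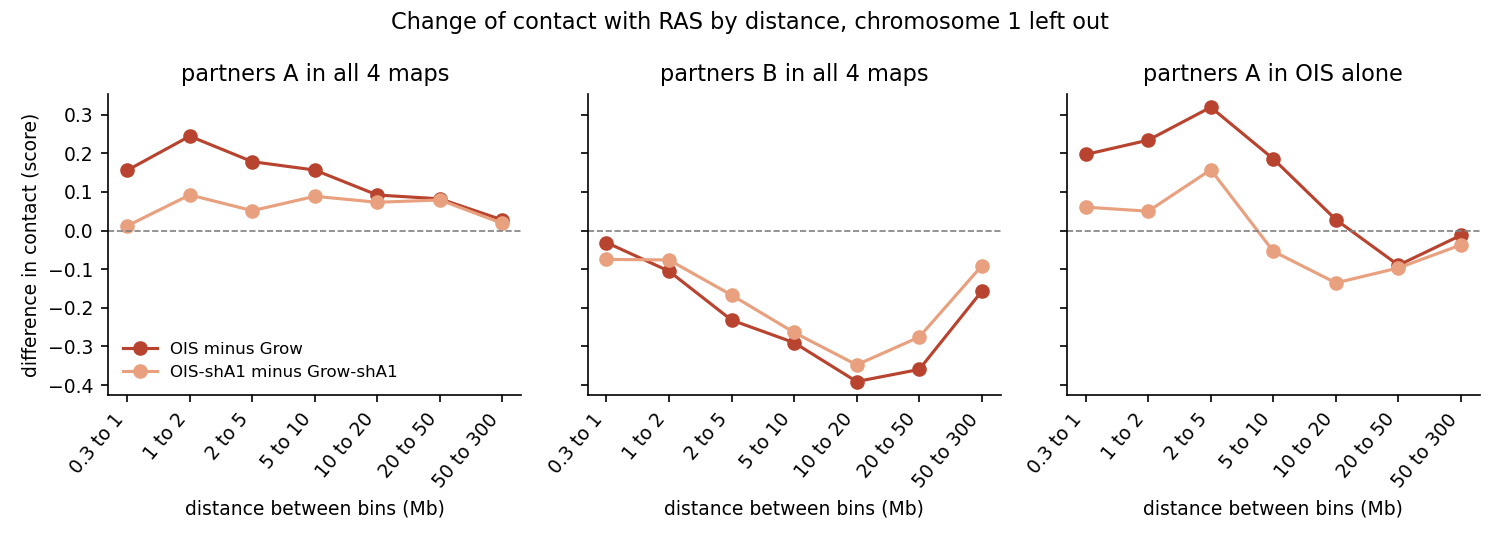
Change of contact with RAS (vertical axis, difference in the distance-corrected score) of OIS-only A bins against the distance between bins (horizontal axis, Mb), for 3 kinds of partner, without chromosome 1. Dark points are OIS minus Grow and light points OIS-shA1 minus Grow-shA1, each 1 difference of 2 maps with no error. The 2 lines for A partners lie apart at short distance (0.244 and 0.092 at 1 to 2 Mb) and together at 20 to 50 Mb (0.082 and 0.079).

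Chromosome 1 carried 52 of the 331 bins, 36 of them in the longest 2 runs of neighbouring bins. The longest was chr1:187801505-191999911, 21 bins in which only BRINP3, a gene induced by bone morphogenetic protein and retinoic acid in neural cells, has its start. Its mean score was -0.74 in Grow, -1.15 in Grow-shA1, 0.41 in OIS and -0.69 in OIS-shA1. The next was chr1:193801178-196800995, 15 bins that include the start of KCNT2, a sodium-activated potassium channel. Its mean scores were -0.80, -1.12, 0.45 and -0.72 in the same order. Both runs are poor in GC, at 34.1% and 34.5%, and held 6.70 and 6.40 runs of 10 or more A or T bases per kb, against a median of 4.00 over all bins. Another run, chr1:186999845-187599060, 3 bins with no start of a protein-coding gene, scored -0.42, -0.82, 0.53 and -0.40.

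In these runs a positive score in OIS did not go with more contact with A. In the 36 bins contact with A bins over 2 Mb away went from -0.269 ± 0.148 in Grow to -0.342 ± 0.122 in OIS (SD over bins), and from -0.435 ± 0.194 to -0.503 ± 0.228 with shA1. Contact with B bins fell from 0.347 ± 0.125 to -0.221 ± 0.096, and with shA1 from 0.562 ± 0.153 to 0.059 ± 0.108. Contact with the other OIS-only A bins of the chromosome was already high in Grow and rose from 1.12 ± 0.181 to 2.27 ± 0.250, and with shA1 from 0.877 ± 0.201 to 1.83 ± 0.238. Within 2 Mb, contact with each other fell instead, from 1.79 ± 0.301 to 1.44 ± 0.224 without shA1 and from 1.32 ± 0.299 to 1.18 ± 0.276 with it. Over 2 Mb, contact of the 36 bins with B thus fell and contact with each other rose, with and without shA1, while their contact with A stayed low. The word opening is not borne out for them, and the contact maps show a separate group of bins whose score changed sign. All 36 scored below 0 in OIS when the component was taken per chromosome arm, at a median of -0.41, and when only pairs listed in all 4 maps were used, at a median of -1.02.

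**Figure D4:**
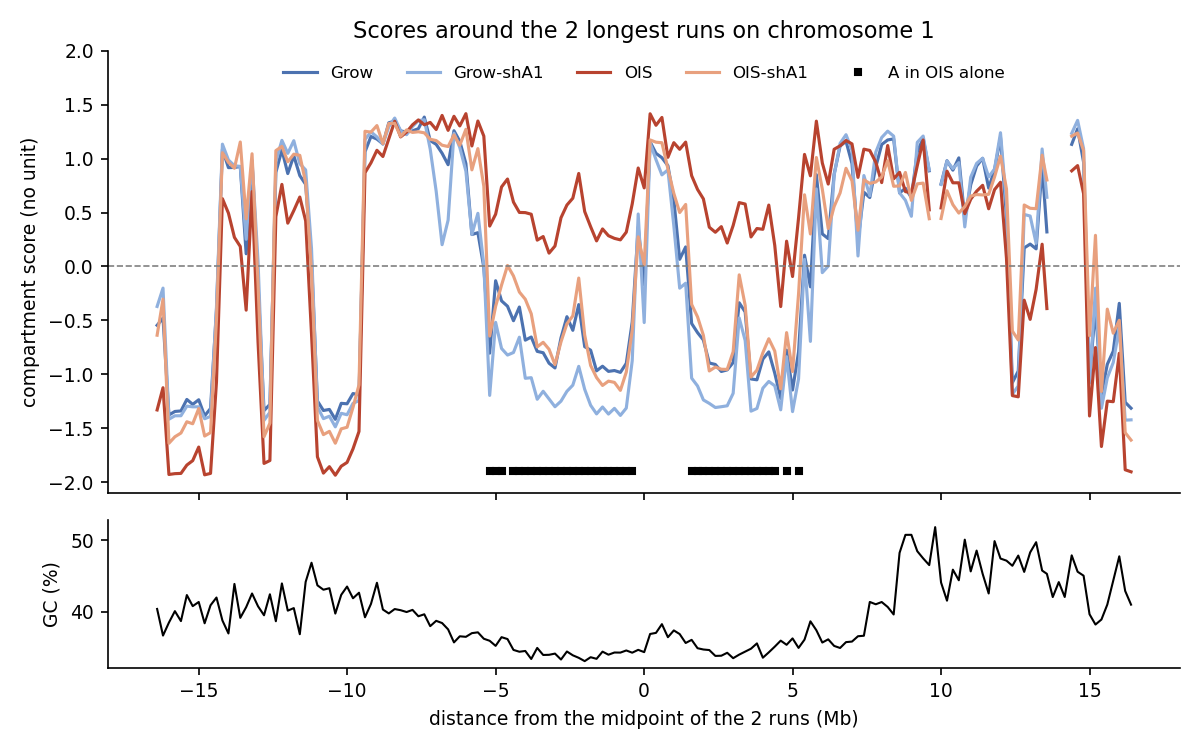
Compartment scores in the 4 maps (upper panel, no unit) and GC content (lower panel, %) around the 2 longest runs of OIS-only A bins on chromosome 1, against the distance from their midpoint (Mb). Black squares mark OIS-only A bins, and gaps are bins that were not used. Over the 2 runs the OIS line lies above 0 and the other 3 lines below it, with mean scores of 0.41 and 0.45 in OIS and of -0.69 and -0.72 in OIS-shA1.

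The bins with the largest difference between OIS and OIS-shA1 and 3 of the 4 highest OIS scores were on chromosome 1 as well. All 8 bins of largest difference lay in the 2 runs. The largest of them was chr1:190799847-191000122, at -0.93 in Grow, -1.30 in Grow-shA1, 0.35 in OIS and -1.10 in OIS-shA1. The highest OIS score, 0.86, was that of chr1:189999516-190198017, in BRINP3, where the scores in Grow, Grow-shA1 and OIS-shA1 were -0.35, -0.93 and -0.11. The only 1 of the 4 off chromosome 1 was chr9:110600828-110801017, at -0.62 in Grow, -1.08 in Grow-shA1, 0.78 in OIS and -0.09 in OIS-shA1. That bin and the 2 after it, chr9:110600828-111203032, hold no start of a protein-coding gene. Over these 3 bins contact with A rose from -0.28 to 0.02 without shA1 and from -0.53 to -0.25 with it.

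Runs on other chromosomes were short. The longest was chr2:29399817-30397665, 5 bins with the starts of ALK, a receptor tyrosine kinase of the developing nervous system, and YPEL5, at mean scores of -0.57 in Grow, -0.79 in Grow-shA1, 0.42 in OIS and -0.17 in OIS-shA1. There contact with B went from 0.31 to -0.34 without shA1 and from 0.41 to -0.01 with it, and contact with A from -0.26 to -0.10 and from -0.32 to -0.24. This region thus lost contact with B and, unlike the chromosome 1 runs, did not gain contact with other OIS-only A bins, which was 0.30 in Grow and 0.09 in OIS. On chr5:35999976-36803516, 4 bins, 7 protein-coding genes start: UGT3A1 and UGT3A2, which attach sugars to small molecules, LMBRD2, SKP2, the substrate receptor of a ubiquitin ligase that removes cell cycle inhibitors, NADK2, the mitochondrial NAD kinase, RANBP3L and SLC1A3, a glutamate transporter. Its mean scores were -0.76, -0.90, 0.10 and -0.17. On chr13:75196882-75800049, 3 bins without a start, they were -0.98, -1.13, 0.09 and -0.87. On chr5:155396688-155996126, 3 bins within SGCD, a sarcoglycan of muscle membranes, they were -0.28, -0.86, 0.23 and -0.51.

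Outside chromosome 1 the largest differences between OIS and OIS-shA1 were in single bins, listed after their values were seen. In chr11:115599461-115800101, with no start of a protein-coding gene, the scores were -0.42 in Grow, -0.94 in Grow-shA1, 0.69 in OIS and -0.57 in OIS-shA1. In chr3:168999754-169196955, within MECOM, a zinc finger regulator of blood stem cells, they were -0.32, -0.86, 0.60 and -0.59, and in the next bin, where MECOM starts, they were 0.24 in OIS and -0.79 in OIS-shA1. In these MECOM bins contact with A rose from 0.07 to 0.31 and from -0.08 to 0.14 without shA1, and from -0.23 to -0.10 and from -0.35 to -0.24 with it. In chr7:14202892-14398014, within DGKB, a diacylglycerol kinase, contact with A went from -0.26 to 0.26 without shA1 and from -0.50 to -0.33 with it, and the scores were -0.82, -0.93, 0.28 and -0.91. In chr6:56006432-56200103, within the collagen gene COL21A1, contact with A went from -0.20 to 0.07 and from -0.49 to -0.29. In these bins, unlike the 2 runs on chromosome 1, contact with A was higher in OIS than in Grow.

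The 331 bins formed 248 runs and 66.2 Mb, and 209 of the runs were single bins. Of the 493 kept bins next to a run, 45.4% stayed B in all maps, 29.0% were A in all maps and 14.4% were A in OIS with and without shA1. Bins of A in all maps on a single side and of B in all maps on the other flanked 85 runs, B bins on both sides 41, and A bins on both sides 14. Of all 12825 used bins, 6123 stayed B in all maps, 5016 were A in all maps and 744 were A in OIS with and without shA1. How often bins drawn at random would have such neighbours was not computed, so no preference for a border is read from these counts. Chromosome 4 held 39 of the bins, 4.34% of its 898 used bins, against 331 of 12825 on all autosomes. Chromosome 2 held 38, 3.30% of 1153, and chromosome 5 held 30, 3.50% of 858. Chromosomes 19, 20 and 22 held none, but only 10, 17 and 2 of their bins were B in both growing maps and A in OIS. As a share of the bins that were B in both growing maps and A in OIS, OIS-only A bins made up 52.0% on chromosome 1, 47.0% on chromosome 4 and 43.8% on chromosome 13, and 7.7% on chromosome 15.

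Base composition and genes were not used to choose the bins, apart from the gene count that turned the score of a whole chromosome. The score nevertheless correlated with GC content across bins, in Grow at r = 0.224 to 0.739 on the autosomes other than chromosome 1. It also correlated with gene count. The features below are therefore not independent of the scores that chose the bins. The bins lay between B and A in GC content, with a median of 39.7% (quartiles 37.1 and 43.6) against 38.0% in bins that stayed B, 41.4% in bins that were A in OIS with and without shA1 and 41.8% in bins that were A in all maps. The difference from bins that stayed B was 1.73 percentage points, and 2.91 without chromosome 1, where the median of the OIS-only A bins was 40.8%. With scores beyond 0.1 in every map it was 0.174. Among the 16 autosomes with 5 or more of the bins, their median GC exceeded that of bins that stayed B on 14, the exceptions being chromosomes 1 and 7. Runs of 10 or more A or T bases, the kind of sequence shown above for 3 windows, occurred at a median of 3.93 per kb in the OIS-only A bins, 4.42 in bins that stayed B and 3.66 in bins that were A in all maps. The 131 mirror bins were close to the OIS-only A bins, at medians of 3.95 runs per kb and 40.3% GC. Without chromosome 1 the median in OIS-only A bins was 3.64. On chromosome 1 the 52 bins had a median of 6.38 against 3.81 in bins of that chromosome that stayed B. Such runs were thus less frequent in the OIS-only A bins than in bins that stayed B outside chromosome 1, and more frequent on it.

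Protein-coding genes covered a median of 38.8% of an OIS-only A bin, against 13.2% of a bin that stayed B, 53.8% of a bin that was A in OIS with and without shA1 and 67.0% of a bin that was A in all maps. Without chromosome 1 the first value was 46.9% and the second 9.58%. The cover was higher than in bins that stayed B on 12 of the 16 autosomes with 5 or more of the bins, lower on chromosomes 1, 9 and 12, and at a median of 0 in both classes on chromosome 13. No start of a protein-coding gene lay in 177 of the 331 bins, which is 53.5%, against 65.5% of bins that stayed B and 30.9% of bins that were A in OIS with and without shA1. HindIII sites, at which the libraries were cut, had medians of 0.30 per kb in the OIS-only A bins and 0.31 in bins that stayed B.

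**Figure D5:**
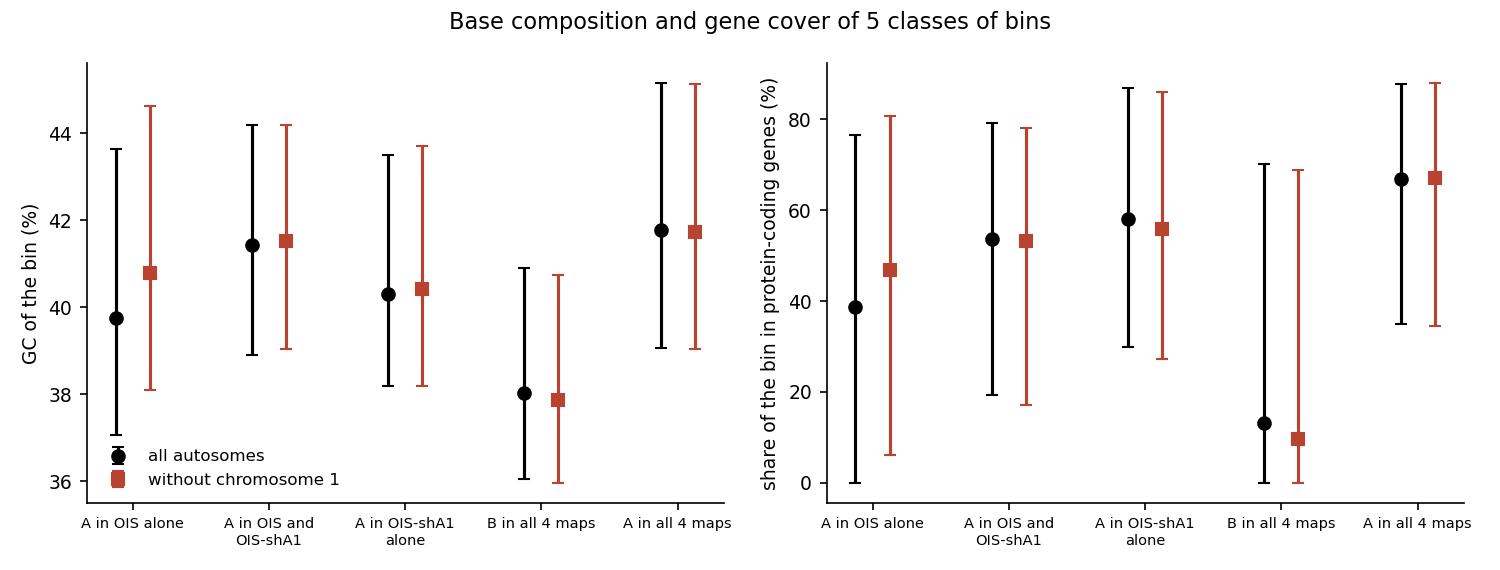
GC content (left, %) and share of the bin covered by protein-coding genes (right, %) in 5 classes of bins. Points are medians and bars the quartiles, over all autosomes (black) and without chromosome 1 (red). The OIS-only A bins have a median GC of 39.7%, or 40.8% without chromosome 1, between the 38.0% of bins B in all 4 maps and the 41.8% of bins A in all 4 maps.

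Of 16814 protein-coding genes that start in kept bins, 312 started in OIS-only A bins, which is 1.86%. None of 41 genes of the inflammatory secretory phenotype, 21 regulators of senescence arrest, 37 genes of TGF beta and BMP signalling, 21 interferons or 60 replication histones started there. The compartments of most of these genes did not change, with 30 of the 41 inflammatory genes in bins that were A in all maps. That held for most genes, since 9974 of all 16814 were in bins that were A in all maps and 4402 in bins that stayed B. None of 89 long neuronal and synaptic genes and none of 27 cadherins outside the clusters started in an OIS-only A bin either. Of these, 71 and 16 were in bins that stayed B. Of 30 matrix proteases and inhibitors 1 started in an OIS-only A bin, MMP2, which encodes a gelatinase. Of 51 matrix genes it was COL24A1, a fibrillar collagen, and of 53 cell cycle genes it was ASPM, a spindle pole protein.

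The bin of MMP2, chr16:55403291-55598672, scored -0.47 in Grow, -0.36 in Grow-shA1, 0.06 in OIS and -0.12 in OIS-shA1, near 0 in both senescent maps. Its contact with A bins fell from 0.21 to -0.03 with RAS and from 0.25 to -0.06 in the presence of shA1. The bin of COL24A1, chr1:86599403-86798832, scored -0.80, -0.83, 0.18 and -0.45, and its contact with A rose from -0.090 to 0.074 with RAS and from -0.227 to -0.039 in the presence of shA1. The bin of ASPM, chr1:196999206-197197449, next to the runs on chromosome 1, scored -0.78, -0.84, 0.23 and -0.61, and its contact with A went from -0.06 in Grow to -0.37 in OIS. Of these 3 bins, that of COL24A1 gained contact with A and those of MMP2 and ASPM did not.

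Gene clusters had a few entries, each cluster within 1 bin. Of 33 serpins, protease inhibitors, 3 started in OIS-only A bins, namely SERPINA3, SERPINA4 and SERPINA5 in chr14:95000008-95198600, which scored -0.97, -1.17, 0.03 and -0.64. Of 151 keratins and keratin-associated proteins, 11 did, all KRTAP10 and KRTAP12 genes of chr21:46000611-46201306, at -0.74, -0.95, 0.09 and -0.05. Of 39 genes of the HOX clusters 3 did, HOXC4, HOXC5 and HOXC8 in chr12:54402007-54597369, at -0.58, -0.66, 0.15 and -0.01. In the last 2 of these bins OIS-shA1 was within 0.1 of 0, and in the first 2 OIS was. Of 484 zinc finger (ZNF) genes 7 were in OIS-only A bins and 67 in bins that were A in OIS with and without shA1. Of 394 olfactory receptors 1 was in an OIS-only A bin, OR52W1, with 342 in bins that stayed B. Over all 16814 genes, 1211 were in bins that were A in OIS with and without shA1 and 4402 in bins that stayed B.

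Of 15 markers of other lineages, 2 started in an OIS-only A bin, the liver genes ALB and AFP in chr4:74200434-74399437, at -0.52, -0.83, 0.19 and -0.33. Also on chromosome 4, and chosen after their values were seen, were the bins of KIT, the receptor for stem cell factor, at -0.16, -0.74, 0.55 and -0.14, and of KDR, a receptor for vascular endothelial growth factor, at -0.55, -0.76, 0.36 and -0.20. At KIT contact with B went from -0.25 to -0.68 with RAS and from 0.00 to -0.25 in the presence of shA1, and contact with A from -0.33 to -0.24 and from -0.53 to -0.52. Expression was not measured by these maps, so a change of score is not a change of transcription.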

How the data were processed

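IMR90 Hi-C maps were analysed for 4 conditions. Per the labels and the study's methods, the authors processed reads with HiC-Pro against hg19, filtered out artefacts and duplicate pairs, binned the rest at about 200 kb with edges at HindIII sites, applied ICE normalisation and corrected for distance. The deposited values are a score of either sign for each listed pair of bins. Its log base is not given in the sources used here. The 2 replicates of each shA1 condition were pooled by the authors. Each sample was grouped by its title, and 0 columns belonged to other series.

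Unlisted pairs were set to 0 before the Pearson correlation matrix and its first component were computed per autosome with numpy 2.4.6. The analysis recovered planted compartments in simulated maps, where chosen bins changed fully from B to A and a single component dominated. Exact recovery was required only at the lower noise levels. The simulation did not try scores near 0 or a second component of similar size, as on chromosome 1. Genes were taken from GENCODE release 44 lifted to GRCh37, and bases from GRCh37. All 13525 inner bin edges lay at HindIII sites of that genome. The 331 bins, the gene lists and the comparisons were chosen with earlier results of these data known. The text names the 8 longest runs, the 8 bins with the largest difference between OIS and OIS-shA1, the 4 highest OIS scores, the bins nearest each threshold, and listed genes that start in OIS-only A bins. For the largest differences outside chromosome 1, 5 of 8 bins are described. No test was made, since each condition has 1 map. Some genes of the named regions are not reported here.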

Additional observations from a re-analysis of the deposited data

Results flagged for a closer look

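Local contact of OIS-only A bins with each other, within 2 Mb and over all autosomes, differed by 0.0731 between Grow and OIS and by -0.00151 between Grow-shA1 and OIS-shA1, and was singled out because the sign turned with shA1. It did not turn in either part of the genome, since the differences were 0.20 and 0.052 without chromosome 1 and -0.360 and -0.183 on it. Their contact with each other over 2 Mb, without chromosome 1, differed by 0.0173 and -0.0741 in the same comparisons. The difference between the conditions with and without shA1 was not tested in either case, because each condition has 1 map.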

How the results depend on the processing

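Of 105 values under 15 alternative settings, 15 moved by over 1.5 times or, for the share, beyond its counting interval, and 90 did not. None changed sign, but counts and the share cannot do so. The score and contact changes come from the values that chose the bins, so their unchanged sign is no support. Turning the score by GC content instead of gene count gave the same values. With only bins that had 80% or more of pairs listed, which left 5154 bins and none on chromosome 1, 154 bins met the rule, the share of bins B in both growing maps and A in OIS that stayed B in OIS-shA1 was 37.5%, the ratio of the score changes with and without shA1 was 0.285, and the change of contact with A minus that with B in the presence of shA1 was 0.190. With only pairs listed in all 4 maps, 620 bins met the rule, 286 of them on chromosome 1, the share was 42.6%, the GC difference from bins that stayed B was 3.49 percentage points and the ratio 0.242. With the component per arm the share was 35.5% and the ratio 0.235. Of the 331 bins, 176 were used at 80% listed and 63 of these met the rule, 236 met it with common pairs and 170 per arm, and none of the 36 bins in the longest runs on chromosome 1 did in any of the 3. With scores beyond 0.1 in every map, 150 bins met the rule and 50 the mirror rule, the share was 24.2% and the GC difference 0.174. Without chromosome 1, an alternative chosen after seeing the data like that without its 2 longest runs, the GC difference was 2.91. The cause was not tested, apart from the fewer bins that the listing and margin settings keep by construction. No paired analysis was possible because each condition has 1 map that pools its replicates, and for the same reason no replicate could be left out.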
